A study of Mus musculus with 12 samples.

Results

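The B cell identity and B cell receptor signaling genes were followed in lung and spleen of mice that lack integrin β3. They are a list of 35 genes taken by symbol, with no immunoglobulin genes, out of 22479 genes listed in lung and 22562 in spleen, and all 35 were found in both tissues and passed the filter on low values. The 35 were divided by general knowledge into 15 genes used mainly by B cells and 20 that B cells share with other cells. The study compared 3 β3-/- mice (labelled ITGB3 KO, a knockout not tied to a cell type) with 3 WT mice. The methods give a C57BL/6 background for both genotypes and an age of 8 to 10 weeks. Lung and spleen were taken from each mouse, 12 libraries in all. Values are FPKM, fragments scaled by gene length and library size. The whole organ was sequenced, so fewer B cells and less RNA per B cell cannot be told apart here.

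The B cell receptor is a membrane immunoglobulin that cannot signal by itself. Its partner chains CD79A and CD79B carry the tyrosine motifs that LYN and BLK phosphorylate and that SYK then binds. SYK and BTK act on the adaptor BLNK and on the phospholipase PLCG2, and the signal leaves through calcium and NFAT, through Ras, and through PRKCB, BCL10 and MALT1 to NF-κB. PAX5 and EBF1 hold the B cell programme in place, and CD22, CD72, PTPN6 and INPP5D damp the receptor. Spleen is rich in resting follicular B cells, whereas healthy lung holds few.

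*Itgb3*, the disrupted gene, had 1.94, 1.34 and 1.29 FPKM in β3-/- lungs against 3.68, 4.39 and 4.14 in WT lungs, and 3.57, 4.02 and 3.52 FPKM in β3-/- spleens against 10.6, 8.95 and 8.50 in WT spleens. Markers of alveolar epithelium summed to 45048 to 78155 FPKM in the lungs and 120 to 180.3 in the spleens, so the organs matched their labels. The Y-linked genes *Ddx3y* and *Eif2s3y* stood at 0 in the 6 β3-/- libraries and at 16.9 to 34.3 FPKM in WT libraries. Neither the labels nor the methods give the sex of the mice, the WT mice were purchased and the β3-/- mice were a gift, so neither sex nor source can be separated from genotype here. Markers of erythroid cells took 21.0%, 11.5% and 16.8% of the summed FPKM in β3-/- spleens 1, 2 and 3, against 5.90%, 1.5% and 4.32% in WT spleens 1, 2 and 3. The spleen libraries of β3-/- 2 and WT 2 also held transcripts of the exocrine pancreas (summed FPKM of 14 genes 246 and 2279, against 18.4 to 27.6 in the 4 other spleens).

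In spleen, 12 of the 35 genes fell in β3-/- mice and none rose (limma, Benjamini-Hochberg adjusted p below 0.05). Of all 15480 genes tested in spleen, 5.39% fell and 3.66% rose. The 12 were *Cd79a*, *Cd79b*, *Ms4a1*, *Cd72*, *Fcrl1*, *Cd37*, *Pax5*, *Spib*, *Pou2af1*, *Blnk*, *Bcl10* and *Ptpn6*, with log2 fold changes of -0.95 to -0.48 and adjusted p of 0.031 to 0.047. None reached the log2 fold change of 1 that the study asked of a changed gene. The median log2 fold change of the 35 was -0.48, against -0.16 for all tested genes. It was -0.62 for the genes used mainly by B cells, of which 9 of 15 fell, and -0.37 for the shared genes, of which 3 of 20 fell. The estimate lay below 0 for 33 of the 35, against 67.0% of all tested genes. In 30 of the 35 each β3-/- spleen was lower than each WT spleen. That held for 32.0% of all tested genes, and the opposite order, which no member showed, for 11.4%.

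*Cd79a* and *Cd79b*, the receptor's signal pair, were the most abundant of the B cell genes in spleen. *Cd79a* had 369, 472 and 375 FPKM in β3-/- spleens 1, 2 and 3, against 630.0, 595 and 634 in WT spleens 1, 2 and 3, a log2 fold change of -0.62 (limma adjusted p = 0.035, SE 0.12). *Cd79b* had 387, 553 and 356 FPKM in β3-/- spleens against 810.3, 816 and 733 in WT spleens, a log2 fold change of -0.89 (limma adjusted p = 0.035, SE 0.17). The groups did not overlap for either gene, and β3-/- spleen 2 came nearest to WT in both.

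Among the surface receptors and coreceptors, 4 of 9 fell. *Ms4a1*, which encodes CD20, had 126, 182 and 115 FPKM in β3-/- spleens against 238, 232 and 216 in WT spleens, a log2 fold change of -0.72 (limma adjusted p = 0.046, SE 0.17). *Fcrl1*, an Fc receptor-like protein of mature B cells, had 52.3, 66.4 and 46.9 FPKM against 99.7, 92.2 and 85.5 (log2 fold change -0.76, SE 0.14, adjusted p = 0.032). *Cd37*, a tetraspanin of lymphocytes and other white cells, had 201, 269.9 and 199.7 FPKM in β3-/- spleens against 357, 372 and 374 in WT spleens (log2 fold change -0.73, SE 0.13, adjusted p = 0.032). *Cd72*, an inhibitory coreceptor, had 65.9, 85.2 and 59.2 FPKM against 108, 99.9 and 102 (log2 fold change -0.58, SE 0.14, adjusted p = 0.047). For each of these the 3 β3-/- spleens lay below the 3 WT spleens.

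*Cd22*, a sialic acid-binding inhibitory coreceptor, had 88.3, 120.8 and 75.9 FPKM in β3-/- spleens against 143, 137 and 144 in WT spleens and missed the threshold (log2 fold change -0.60, adjusted p = 0.057 from limma). Its groups did not overlap, as for 32.0% of all tested genes with β3-/- lower. *Fcrla* and *Cd180*, a Toll-like receptor relative, had estimates of -0.55 and -0.72 and adjusted p of 0.058 and 0.055. *Cd81*, a tetraspanin that many cell types make, did not follow the others. It had 132, 134 and 123 FPKM in β3-/- spleens against 131, 119 and 126 in WT spleens, overlapping groups with a log2 difference of 0.05 (95% interval -0.14 to 0.25). *Ly86*, the partner of CD180, had a log2 difference of -0.20 (95% interval -0.47 to 0.07) and overlapping groups.

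**Figure D1:**
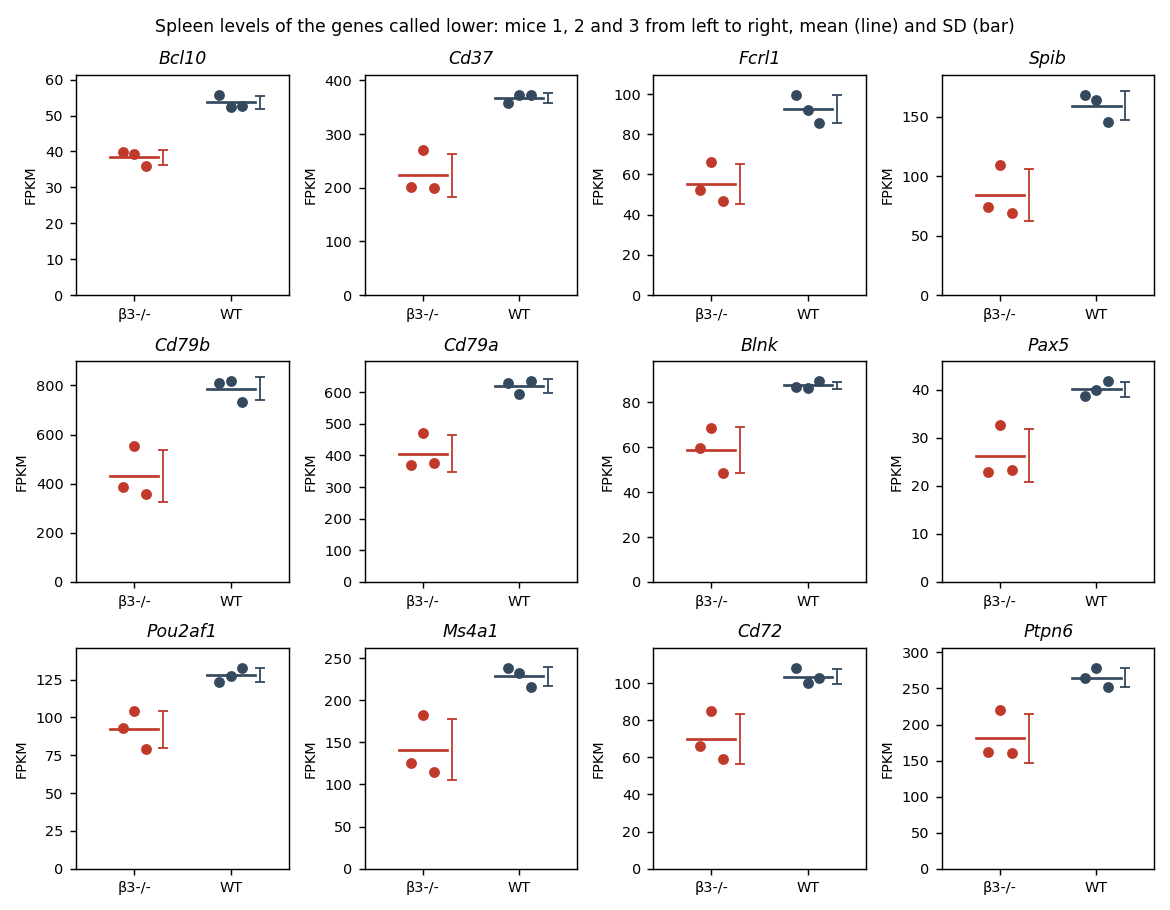
FPKM in spleen of the 12 genes that fell, one panel per gene in order of p; points are mice 1, 2 and 3, lines the group means and bars the SD (n = 3). In each panel the 3 β3-/- spleens lie below the 3 WT spleens, and in all but *Bcl10* β3-/- spleen 2 is the highest of its group.

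Of the 6 transcription regulators, 3 fell. *Spib*, an ETS factor of B cells and plasmacytoid dendritic cells, had the largest change of the 35. It had 73.9, 109 and 68.9 FPKM in β3-/- spleens against 168, 164 and 145 in WT spleens, a log2 fold change of -0.95 (limma adjusted p = 0.032, SE 0.18). *Pax5*, the factor that keeps cells committed to the B lineage, had 22.9, 32.7 and 23.3 FPKM against 38.6, 39.97 and 41.7 (log2 fold change -0.63, SE 0.15, adjusted p = 0.045). *Pou2af1*, the coactivator that binds octamer factors, had 93.2, 104 and 79.3 FPKM in β3-/- spleens against 123, 128 and 133 in WT spleens (log2 fold change -0.48, SE 0.11, adjusted p = 0.046). The others, *Ebf1*, *Pou2f2*, which encodes the octamer factor OCT2, and *Nfatc1*, had estimates of -0.43, -0.37 and -0.38 and adjusted p of 0.097, 0.078 and 0.083 from limma. Their groups did not overlap, as for 32.0% of all tested genes with β3-/- lower.

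Because the genes lay lower together, the 250 bases before the start of each gene's canonical transcript (GENCODE vM39 on GRCm39) were searched on both strands for 3 motifs of B cell regulators. The PU box GAGGAA, bound by SPIB and its relative PU.1, stood in 13 of the 35 (37.14%) against 22.93% of 21757 promoters. It stood in 5 of the 12 genes that fell and in 8 of the 23 others. By use, it stood in 5 of the 15 genes used mainly by B cells and in 8 of the 20 shared genes. The differences between these shares were not tested. The octamer ATGCAAAT, bound by OCT2 with the product of *Pou2af1*, stood in *Blnk* and *Prkcb* only, 2 of 35 (5.71%) against 1.49%. The EBF1 palindrome TCCCNNGGGA stood in none of the 35 and in 0.88% of all promoters. No promoter of the 35 held both the octamer and the PU box. Stretches of 60 bases on the gene's strand are shown for those genes that fell whose match lay outside annotated exons, with the match in capitals (5′ to 3′).
Fcrl1 (chr3:87283574-87283633, plus strand, match 33 bases before the start): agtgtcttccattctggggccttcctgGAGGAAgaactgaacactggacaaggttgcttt
Cd72 (chr4:43455207-43455266, minus strand, match 111 bases before the start): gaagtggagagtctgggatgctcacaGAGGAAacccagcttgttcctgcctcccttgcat
Pax5 (chr4:44710525-44710584, minus strand, match 71 bases before the start): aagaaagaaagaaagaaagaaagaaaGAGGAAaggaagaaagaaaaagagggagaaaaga
Ptpn6 (chr6:124710300-124710359, minus strand, match 216 bases before the start): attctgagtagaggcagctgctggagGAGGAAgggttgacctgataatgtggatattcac
Blnk (chr19:40982979-40983038, minus strand, octamer 23 bases before the start): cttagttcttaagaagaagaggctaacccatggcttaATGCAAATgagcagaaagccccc
The *Fcrl1* and *Cd72* matches stand alone in mixed sequence, whereas that of *Pax5* lies inside a run of purine repeats. *Spib*, *Cd79a*, *Cd79b* and *Ms4a1* held none of the 3 motifs in this window. A match is a run of letters and not a measured site, and binding was not measured here.

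None of the 4 receptor-proximal kinases passed the threshold. For each the β3-/- spleens lay below the WT spleens without overlap, as for 32.0% of all tested genes. *Blk*, the Src family kinase used mainly by B cells, had 61.7, 85.5 and 50.8 FPKM in β3-/- spleens against 110.4, 101.7 and 105 in WT spleens (log2 fold change -0.71, limma adjusted p = 0.0502, SE 0.18). *Syk* had 88.2, 98.7 and 74.5 FPKM against 117, 108 and 116 (log2 fold change -0.39, adjusted p = 0.066). *Btk*, which is X-linked, had 33.9, 42.3 and 34.9 FPKM in β3-/- spleens against 54.4, 48.0 and 48.4 in WT spleens (log2 fold change -0.44, adjusted p = 0.051). *Lyn*, which myeloid cells also use, had the smallest estimate of the 4, -0.26 (adjusted p = 0.12).

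Of the adaptors, *Blnk* fell and *Dapp1* was level. *Blnk*, which couples SYK to PLCG2 and BTK, had 59.7, 68.8 and 48.3 FPKM in β3-/- spleens against 87.0, 86.5 and 89.3 in WT spleens, a log2 fold change of -0.59 (limma adjusted p = 0.042, SE 0.13). *Dapp1*, a phosphoinositide-binding adaptor, had 23.6, 24.9 and 27.98 FPKM against 26.4, 25.8 and 24.1, a log2 difference of 0.00 (95% interval -0.22 to 0.23). *Bank1* and *Pik3ap1*, which link the receptor to calcium and to PI3 kinase, had estimates of -0.35 and -0.41 and did not pass.

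The enzymes downstream were uniform. *Plcg2*, *Pik3cd*, the PI3 kinase subunit p110δ, *Vav1*, *Rasgrp3* and *Ralgps2*, exchange factors for small GTPases, had estimates between -0.49 and -0.36, and none passed. All were lower without overlap, as were 32.0% of all tested genes. In the NF-κB branch *Bcl10* had 39.8, 39.2 and 36.0 FPKM in β3-/- spleens against 55.8, 52.5 and 52.6 in WT spleens. Its log2 fold change of -0.49 (SE 0.08) had the smallest p and the smallest SE of the 35 (adjusted p = 0.031 from limma). Its partner *Malt1* had an estimate of -0.27 with overlapping groups, and *Prkcb*, the kinase above them, -0.48 (adjusted p = 0.075). *Ptpn6*, the inhibitory phosphatase SHP-1, had 162, 220.1 and 159.8 FPKM against 265, 278 and 253 (log2 fold change -0.57, SE 0.14, adjusted p = 0.047). *Inpp5d*, the lipid phosphatase SHIP-1, had an estimate of -0.33 (adjusted p = 0.053).

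For the lists that follow, 5.39% of all tested genes fell and 3.66% rose. Of 58 other genes of the receptor pathway, 8 fell in β3-/- spleens and none rose, with a median log2 fold change of -0.25. Among them were *Dok3* (log2 fold change -0.72), *Stap1* (-0.64) and *Hvcn1* (-0.65), a proton channel. Of 12 other B lineage genes 7 fell, with a median of -0.83. Of 11 T cell markers 1 fell, with a median of -0.50. Erythroid markers rose in 9 of 10, plasma cell markers in 5 of 13, macrophage and monocyte markers in 2 of 9 and neutrophil markers in 1 of 8. Without overlap, 11.4% of all tested genes were higher and 32.0% lower. The neutrophil markers had a median log2 fold change of 1.94, with 6 of the 8 higher without overlap, and summed to 692 to 4211 FPKM in β3-/- spleens against 351 to 408 in WT spleens. The macrophage and monocyte markers had a median of 0.40, with 6 of the 9 higher without overlap, and their sums overlapped at 1945 to 2210 FPKM in β3-/- spleens against 2020 to 2318 in WT spleens. The part of these cells in the lower B cell genes was not tested. The summed FPKM of the 13 plasma cell genes was 3068 to 3255 in β3-/- spleens against 1252 to 1316 in WT spleens. Their median log2 fold change was 0.31, with 9 of the 13 higher and 2 lower without overlap.

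The count of calls moved with the count over all genes. With β3-/- 1, β3-/- 3, WT 1, WT 2 or WT 3 left out, none of the 35 passed, 0.0457% to 0.360% of all genes fell, and the median of the 35 was -0.48 to -0.38. With β3-/- 2 left out 32 passed, 19.4% of all genes fell, and the median was -0.57. Without both spleens that held pancreas transcripts none passed, 0.0398% of all genes fell, 34 estimates lay below 0 and the median was -0.58. Rescaling to TPM, which sets each library to the same sum, called 31 and gave a median of -0.68, while 32.8% of all genes fell with a median of -0.36. Median-of-ratios scaling called 4 and gave -0.31, while 1.22% of all genes fell with a median of -0.00. *Cd81* and *Dapp1* lay below 0 after TPM scaling, and no call of a member reversed its direction in any of 19 alternatives. TPM over the genes that are not erythroid markers called 12 with a median of -0.48, and 4.85% of all genes fell. Whether the share of erythroid transcripts has a part in the result beyond this scaling was not tested.

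**Figure D2:**
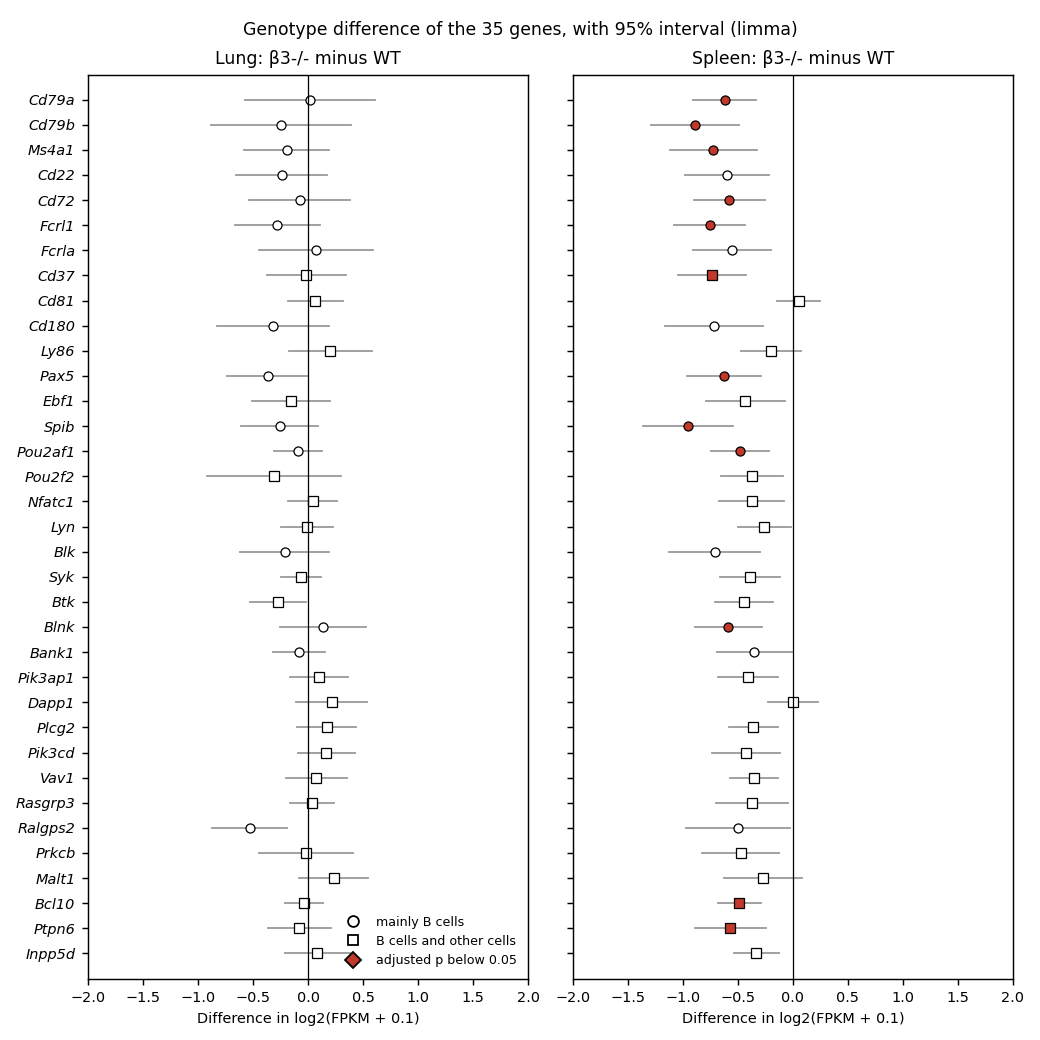
Difference in log2(FPKM + 0.1) between β3-/- and WT for each of the 35 genes, in lung (left) and spleen (right), with 95% intervals from limma; circles are genes used mainly by B cells, squares shared genes, and filled symbols passed an adjusted p of 0.05. In spleen 33 of 35 estimates lie below 0, against 67.0% of all tested genes, and 12 are filled. In lung the estimates lie on both sides of 0 and none is filled.

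In lung none of the 35 passed, in either direction, while 0.296% of all 15869 tested genes rose and 0.0315% fell. At an unadjusted limma p below 0.05, 3 of the 35 were lower and none was higher, against 1222 and 786 of all 15869 genes. The median log2 fold change was -0.04, against -0.02 for all genes. It was -0.21 for the genes used mainly by B cells and 0.04 for the shared genes. Each β3-/- lung was lower than each WT lung for *Ralgps2* and *Btk*, and higher for *Malt1*, against 12.6% and 6.86% of all genes. None passed in any of 19 alternatives, and the smallest adjusted p any member reached in them was 0.15.

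*Ralgps2*, the exchange factor for Ral, had the largest estimate in lung. It had 6.63, 5.46 and 6.11 FPKM in β3-/- lungs 1, 2 and 3 against 7.55, 10.3 and 8.73 in WT lungs 1, 2 and 3 (log2 fold change -0.53, limma adjusted p = 0.22, SE 0.14). *Pax5* had 3.75, 3.31 and 2.97 FPKM against 4.61, 4.69 and 3.73 (log2 fold change -0.37, adjusted p = 0.39), and the groups overlapped by 1 library. *Btk* had 6.26, 6.79 and 5.86 FPKM in β3-/- lungs against 7.98, 7.84 and 7.07 in WT lungs (log2 fold change -0.27, adjusted p = 0.37). *Cd180*, at 4.29, 5.01 and 5.75 FPKM against 7.23, 7.29 and 4.56, and *Pou2f2*, at 1.39, 1.36 and 0.967 FPKM against 1.64, 1.94 and 1.15, overlapped. Their estimates were -0.32 and -0.31.

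Apart from *Btk*, the core receptor genes overlapped between the genotypes in lung. *Cd79a* had 61.5, 84.2 and 52.7 FPKM in β3-/- lungs against 63.8, 85.9 and 48.1 in WT lungs, a log2 difference of 0.02 whose 95% interval ran from -0.57 to 0.61. *Cd79b* had 68.6, 92.1 and 52.4 FPKM against 76.96, 113 and 63.4 (log2 difference -0.24, 95% interval -0.88 to 0.39). *Ms4a1* had 17.0, 18.7 and 13.9 FPKM in β3-/- lungs against 19.99, 21.6 and 15.4 in WT lungs. *Cd22* had 12.9, 13.5 and 10.6 FPKM against 13.99, 18.3 and 11.95, and *Blk* had 10.2, 9.89 and 6.84 against 9.70, 11.3 and 9.77. *Syk* had 19.5, 20.8 and 18.7 FPKM against 19.96, 21.5 and 20.2, with a narrower interval of -0.24 to 0.12 on the log2 scale. *Blnk*, at 12.7, 10.7 and 8.11 FPKM in β3-/- lungs against 9.64, 8.93 and 9.63 in WT lungs, had an estimate above 0 (0.13, 95% interval -0.26 to 0.52). The lower bound of the lung interval lay just above the spleen estimate for *Cd79a* (-0.57 in lung, -0.62 in spleen) and for *Cd79b* (-0.88 in lung, -0.89 in spleen). For *Syk* and *Blnk* the lower bounds, -0.24 and -0.26, lay further above the spleen estimates.

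Other lists in lung gave no calls among 58 receptor pathway genes or 12 other B lineage genes, whose medians were -0.08 and -0.31. *Nfkbia*, the inhibitor of NF-κB, and *Jun* had the smallest p of the pathway genes, with log2 differences of 0.71 and 0.36 and adjusted p of 0.17 and 0.24 from limma. Of the 13 plasma cell markers 1 rose, against 0.296% of all tested genes. Their summed FPKM was 595 to 622 in β3-/- lungs against 335 to 368 in WT lungs. The median log2 fold change of these 13 was 0.21, with 11 estimates above 0 and 2 below. T cell markers had a median of 0.52 with no call among 11. Of these, 8 were higher and none lower without overlap, against 6.86% and 12.6% of all tested genes. *Ubb* split the lung libraries across the genotypes, at 4.52 to 4.97 FPKM in β3-/- 1, β3-/- 2 and WT 3 and 570 to 688 in the others, and a fit with that split as a term also called none of the 35.

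The libraries moved as blocks. Summed over the 15 genes used mainly by B cells, spleens held 1622, 2163 and 1488 FPKM in β3-/- mice 1, 2 and 3 against 2894, 2812 and 2747 in WT mice 1, 2 and 3. Lungs held 267, 318 and 218 FPKM in β3-/- mice against 285, 366 and 237 in WT mice. β3-/- spleen 2 was the highest of its group in 15 of the 15 genes, and β3-/- spleen 3 the lowest in 12. In lung, WT 2 was the highest of the 6 libraries in 13 of 15 and β3-/- 3 the lowest in 11. The same β3-/- mouse was lowest in both organs for 12 of the 15 genes and highest in both for 8. The same WT mouse was lowest in both for 7 and highest in both for 2. The 15 genes moved together and are not separate observations of a mouse, and the share over all genes was not computed. The erythroid share was lowest in β3-/- spleen 2 among the β3-/- spleens. The coefficient of variation between mice had a median over the 35 genes of 17.9% in β3-/- spleens against 4.19% in WT spleens, and of 11.8% in β3-/- lungs against 12.3% in WT lungs.

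**Figure D3:**
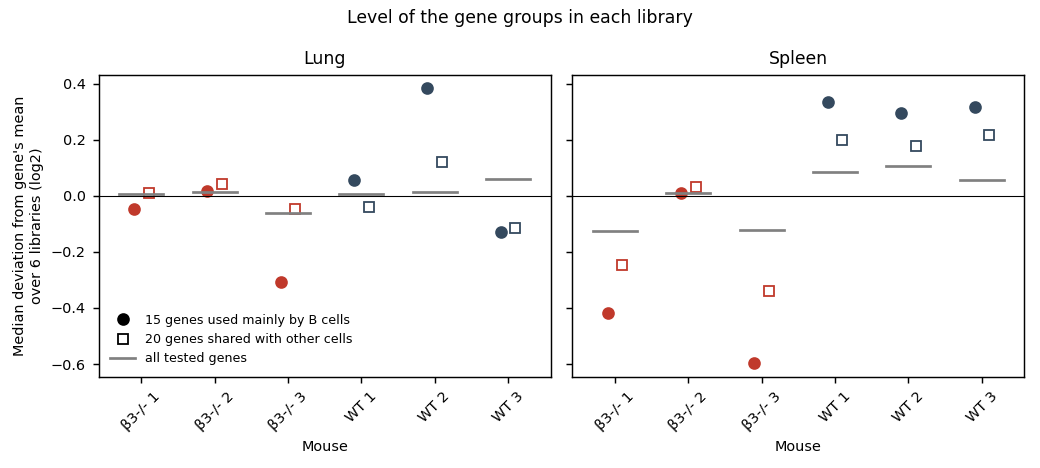
Median deviation of the gene groups from each gene's mean over the 6 libraries of a tissue, on the log2 scale, in lung (left) and spleen (right); circles are the 15 genes used mainly by B cells, squares the 20 shared genes and grey lines all tested genes. In spleen, β3-/- 1 and 3 lie at -0.42 and -0.60 for the circles, β3-/- 2 at 0.01 and the WT mice at 0.30 to 0.34; in lung the genotypes overlap.

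To see which genes changed relative to their own set, each gene was set within its library against the mean log2 level of the genes used mainly by B cells, leaving out the gene itself. Since that mean was itself lower in β3-/- spleens, the centring fixes how many other genes lie above or below, so these levels order the genes within the set and the shares of all genes beside them are no comparison for its members. In spleen, 3 of the 35 lay below WT without overlap (0.807% of all genes). *Spib* lay at 0.02 ± 0.09 in β3-/- spleens against 0.35 ± 0.10 in WT spleens (mean ± SD on the log2 scale, n = 3 each), *Cd79b* at 2.56 ± 0.06 against 2.82 ± 0.08, and *Fcrl1* at -0.61 ± 0.04 against -0.49 ± 0.08. For *Fcrl1* the groups nearly touched, with the highest β3-/- spleen at -0.581 and the lowest WT spleen at -0.577. Another 17 of the 35 genes lay above (61.2% of all genes). *Bank1* was among them, at -0.21 ± 0.03 in β3-/- spleens against -0.52 ± 0.12 in WT spleens, and so were *Cd72*, with a difference of only 0.07, and 15 of the 20 shared genes. *Pax5*, *Cd79a* and *Blnk*, called lower on the FPKM scale, overlapped on this one, with differences of 0.02, 0.02 and 0.06.

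In lung *Fcrl1* alone lay below, at -1.06 ± 0.01 in β3-/- lungs against -0.95 ± 0.08 in WT lungs (1.80% of all genes). Here too the groups nearly touched, with the highest β3-/- lung at -1.047 and the lowest WT lung at -1.041. The 7 that lay above were shared genes, among them *Ly86*, *Pik3cd* and *Vav1* with differences of 0.38, 0.34 and 0.25 (10.4% of all genes). The ratio of *Cd79b* to *Cd79a* was 1.115, 1.09 and 0.99 in β3-/- lungs against 1.21, 1.31 and 1.32 in WT lungs, without overlap. In spleen it was 1.05, 1.17 and 0.95 in β3-/- mice against 1.29, 1.37 and 1.16 in WT mice, where β3-/- 2 overlapped WT 3. This ratio was chosen after its values were seen and is given without a test.

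**Figure D4:**
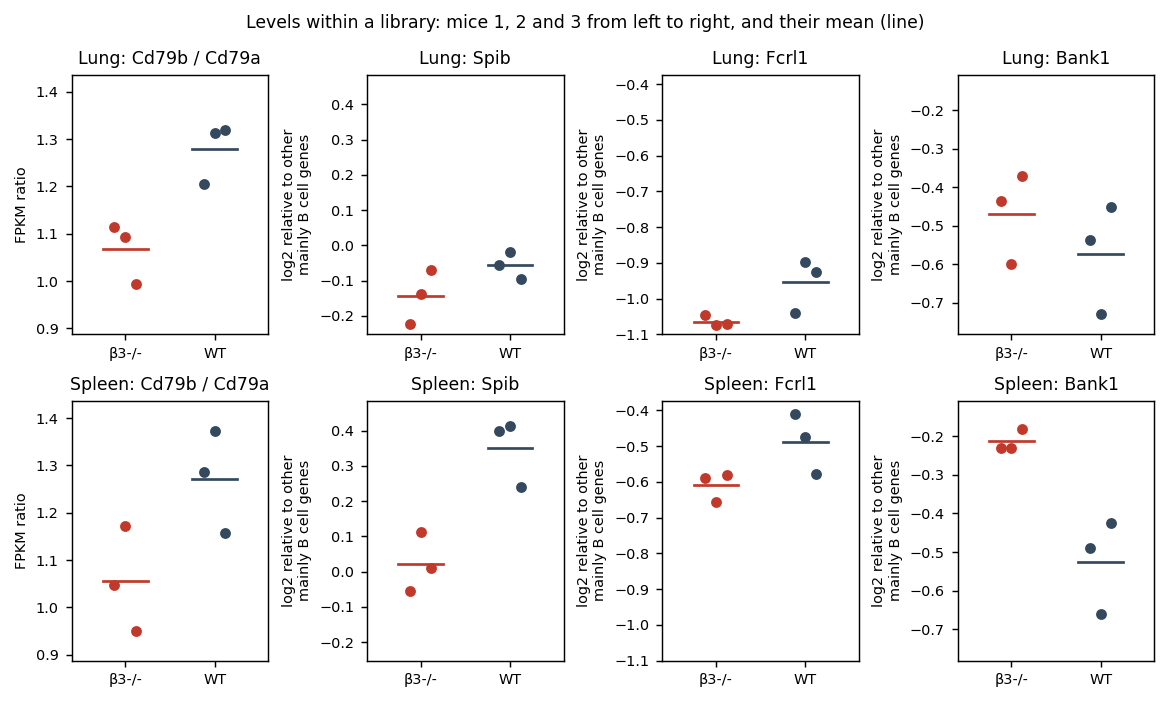
Levels within a library, in lung (top) and spleen (bottom); the ratio of *Cd79b* to *Cd79a* FPKM in the first column, and *Spib*, *Fcrl1* and *Bank1* on the log2 scale relative to the other genes used mainly by B cells in the rest. Points are mice 1, 2 and 3 and lines their means. In spleen *Spib* and *Fcrl1* lie lower and *Bank1* higher in β3-/- than in WT. In lung the ratio and *Fcrl1* are apart while *Spib* and *Bank1* overlap. The groups of *Fcrl1* nearly touch in both tissues.

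Spleen and lung held the set at very different levels. In β3-/- mice 33 of the 35 were higher in spleen than in lung and 1 was lower, against 32.6% and 35.3% of 16312 genes tested. In WT mice 33 were higher and none was lower, against 37.8% and 33.3%. The median log2 difference, spleen over lung, was 2.35 in β3-/- mice and 2.74 in WT mice. It was 2.85 in β3-/- mice and 3.26 in WT mice for the genes used mainly by B cells, and 1.76 and 2.23 for the shared genes. *Fcrl1* had the largest difference, at 8.38, 10.3 and 9.17 times the lung level in spleens of β3-/- mice 1, 2 and 3 and 14.7, 10.6 and 13.6 times in WT mice 1, 2 and 3. *Bcl10*, made by most cells, stood at 1.42, 1.41 and 1.42 times in β3-/- mice and 2.00, 1.97 and 1.83 times in WT mice.

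The exceptions were *Cd81* and *Rasgrp3*. *Cd81* averaged 129.9 ± 5.78 FPKM in β3-/- spleens and 153 ± 6.47 in β3-/- lungs (SD, n = 3 each), a log2 difference of -0.23 (adjusted p = 0.043 from limma). In WT mice it averaged 125 ± 6.11 FPKM in spleens and 147 ± 18.9 in lungs, a log2 difference of -0.22 (adjusted p = 0.052, and 0.045 with the mouse as a random block). *Rasgrp3* averaged 14.99 ± 2.69 FPKM in β3-/- spleens and 17.3 ± 0.92 in β3-/- lungs, and 19.2 ± 1.07 in WT spleens and 16.9 ± 1.09 in WT lungs, and passed in neither genotype. FPKM is scaled by length, so levels can be ordered across genes. *Cd79b* was the highest of the 35 in spleen and *Cd81* in lung, and *Pou2f2* the lowest in both, in either genotype. Of the 34 pairs of neighbours in that order, the values overlapped in 31 in β3-/- spleens, 17 in WT spleens, 28 in β3-/- lungs and 28 in WT lungs.

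**Figure D5:**
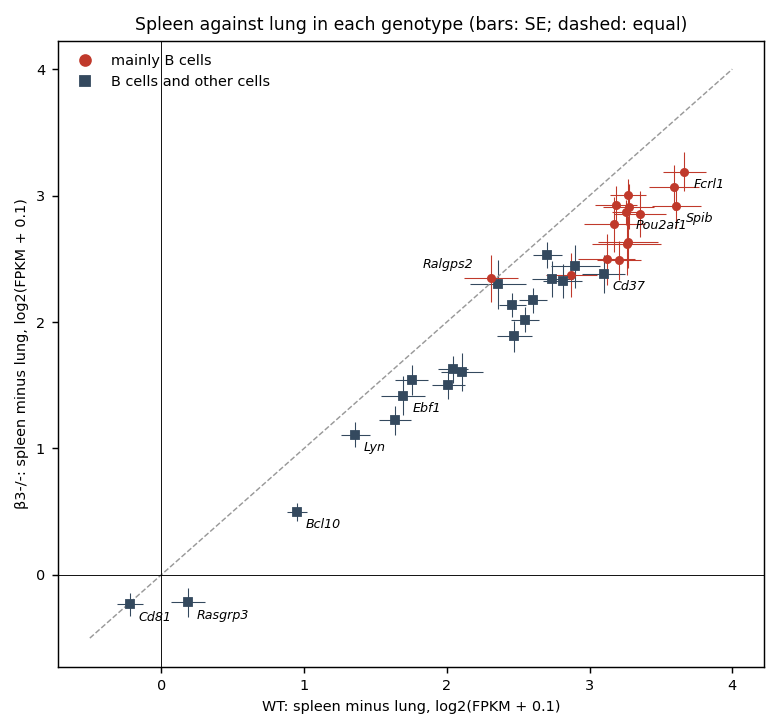
Spleen minus lung on the log2(FPKM + 0.1) scale for each of the 35 genes, in β3-/- mice (vertical axis) against WT mice (horizontal axis), with SE bars from limma and a dashed line of equal differences. Genes used mainly by B cells (circles) lie between 2.31 and 3.66 in WT mice; 34 of the 35 points lie below the dashed line, *Ralgps2* being the exception.

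Whether the genotype difference itself differed between spleen and lung was tested as an interaction. None of the 35 passed, while 0.215% of all 16312 genes were higher and 0.202% lower. The estimate, spleen minus lung, was below 0 for 34 of the 35, against 62.7% of all genes. Its median was -0.43, against -0.12 for all genes. At an unadjusted limma p below 0.05, 17 of the 35 were lower and none was higher, against 2096 and 1028 of all 16312 genes. *Bcl10* had the smallest p (-0.45, limma adjusted p = 0.063, SE 0.10), followed by *Plcg2* (-0.53, SE 0.14, adjusted p = 0.094). *Blnk*, at -0.72, and *Cd37*, also at -0.72, had the largest estimates (adjusted p of 0.12 each). With the mouse as a random block, since both organs came from the same mice, *Bcl10* passed (adjusted p = 0.045 from limma) and the other 34 did not. Taken mouse by mouse, the spleen minus lung difference was lower in each β3-/- mouse than in each WT mouse for 21 of the 35, against 18.4% of all genes, and higher for none, against 8.27%.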

How the data were processed

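Lung and spleen RNA of 3 β3-/- and 3 WT mice was sequenced, 1 library per mouse and tissue. Per the methods and the submitters' processing notes, the authors used Trimmomatic for trimming, HISAT2 for alignment (GRCm39) and featureCounts for counting. Versions are not given in the sources used here. The deposited values are FPKM made by the authors with a tool that is not named. There are no counts, so the depth of each library is unknown and precision was taken from the spread between mice. Summed FPKM was 470647 to 489157 in β3-/- lungs, 455850 to 465356 in WT lungs, 551345 to 593175 in β3-/- spleens and 494298 to 508224 in WT spleens. The methods name TRIzol and the labels an RNeasy kit.

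Genes with at least 0.1 FPKM in at least 3 libraries of a tissue were tested on log2(FPKM + 0.1), so fold changes of low genes are understated. limma-trend (limma 3.58.1, R 4.3.3) was fitted without covariates to the 6 libraries of a tissue, and to all 12 for the interaction and the tissue contrasts over 16312 genes. The Benjamini-Hochberg adjustment ran over every gene tested. An exact permutation test of 3 against 3 cannot give a p below 0.1. The fit was tested on simulated data. The study's DESeq2 takes counts and was not run.

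The 35 members, their roles and the other lists were chosen with earlier results of these data known. Values per library are given for 9 core genes, for each member that passed and for the 4 largest differences in each genotype comparison; *Cd81* and *Dapp1* were added after their values were seen, and levels relative to the set were computed after the fits. Of the pathway genes outside the 35, those that passed were named by p, and 1 that the rule takes is not reported here. Both organs came from the same mice, per the methods, which do not explain the numbers. Lung and spleen libraries with the same number in their sample titles were taken to be from the same mouse. Their deviations correlated at 0.061, 0.068 and 0.136 in β3-/- mice and at 0.016, 0.089 and 0.06 in WT mice. Neither the labels nor the methods pair the genotypes by number. Alternatives were pseudocounts of 1 and 0.01, no filter, a filter at 1 FPKM, quantile normalization, TPM, median-of-ratios scaling, library weights, limma without trend, a replicate block, a single fit of 12 libraries, and each library left out. The split by *Ubb*, leaving out both spleens with pancreas transcripts, and TPM without erythroid markers were added after seeing the data. Promoter sequence is from the GRCm39 genome with GENCODE vM39.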

Additional observations from a re-analysis of the deposited data

How the results depend on the processing

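In spleen, 12 of the 35 genes fell in β3-/- mice. The count, and the share of all tested genes that fell, was 1 (0.875%) with no filter, 20 (10.2%) with a filter at 1 FPKM, 31 (32.8%) with TPM, 4 (1.22%) with median-of-ratios scaling, 0 (0.523%) with limma without trend, 24 (10.2%) with library weights and 23 (13.5%) in a single fit of all 12 libraries, against 12 (5.39%) in the fit reported. It was 0 (0.0398%) without both spleens with pancreas transcripts, an alternative chosen after seeing the data. With each library left out in turn it ranged from 0 to 32 (0.0457% to 19.4%). With the replicate number as a block it was 15 (6.20%). Same-numbered β3-/- and WT spleens correlated at 0.201, 0.355 and 0.082, and lungs at 0.176, 0.035 and -0.036. Whether a number also marks shared handling of the genotypes was not tested. The cause of these changes in the count was not tested either. Estimates lay below 0 for 33 to 35 genes throughout, with a median of -0.68 to -0.31. In the fit reported, 67.0% of all tested genes lay below 0.

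In lung the count was 0 under all 19 alternatives, the replicate block included. For the interaction it was 0, but 1 with TPM, 5 with library weights and 1 with the mouse as a random replicate block, and 0 to 9 with a library left out (9 without β3-/- spleen 2). Of spleen against lung, 33 genes were higher in either genotype under all 18 alternatives. The count lower in spleen in β3-/- mice was 1, but 2 with TPM, 0 with median-of-ratios scaling, 0 with limma without trend and 0 to 1 with a library left out. In WT mice it was 0, but 1 with TPM, median-of-ratios scaling, quantile normalization, library weights, the mouse as a random replicate block and TPM without erythroid markers, and 0 to 1 with a library left out.

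FPKM without counts limits what can be said of depth, and with 3 mice per genotype the adjusted p of the spleen genes lay just under the threshold.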
